A study of Mus musculus with 25 samples.

Results

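Killer lectin-like receptors and granzymes were followed through mouse liver progenitor cells, the tumours they formed and the stroma of those tumours. The members were the genes of the count table whose symbol begins with Klr and a letter from a to k, those named Gzm with a letter from a to n, and 4 further genes, Ncr1, Prf1, Nkg7 and Eomes. This gave 50 of the 24984 genes in the table, namely 36 Klr genes, of which 20 were Klra (Ly49) genes, 10 granzymes and the 4 added genes. RNA had been sequenced from 25 libraries. BMEL cells, a bipotential progenitor line grown from C57BL/6xC3H embryonic mouse liver, were cultured with an empty vector (BMEL WT) or with a viral vector for HRasG12V at a low (RasLOW) or high (RasHIGH) level, set by sorting for a fluorescent reporter, with 3 independent samples each. Tumours were raised by injection of BMEL-Ras cells into the liver of athymic nude mice (Crl:NU(NCr)-Foxn1nu), where growth in the liver was accompanied by growth in the peritoneum. From both tumours of each of 4 mice, reporter-positive tumour cells and reporter-negative stromal cells were sorted, which gave 4 libraries each of liver tumour cells, peritoneal tumour cells, liver stroma and peritoneal stroma. The labels of these 16 libraries do not say which Ras population had been injected, and the age of the mice is not given. All 4 groups therefore share the nude host, which lacks a thymus and with it most T cells but keeps natural killer (NK) cells, and the sort on the reporter, with no sort on a leukocyte marker.

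NK cells decide whether to kill by weighing activating against inhibitory receptors, and most of these receptors in the mouse are C-type lectin-like proteins of the NK gene complex. Ly49 receptors (Klra genes) bind class I molecules of the major histocompatibility complex, NKG2A and its relatives (Klrc genes) bind the non-classical molecule Qa-1 as a pair with CD94 (Klrd1), NKG2D (Klrk1) binds stress-induced ligands, and NKR-P1 receptors (Klrb1 genes) bind Clec2 proteins. A cell that is attacked receives perforin (Prf1), which opens membranes, and granzymes, the serine proteases that enter with it and start cell death. Ly49 genes also differ in number between mouse strains, and several members are expressed outside NK cells, among them Klra2 (Ly49B) in myeloid cells and Klra17 (Ly49Q) in plasmacytoid dendritic and myeloid cells.

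Total counts per library ran from 20818989 to 51241336, so that 3 counts corresponded to between 0.0585 and 0.144 CPM (counts per 1e6 counts of the library), a limit that covers counting error only. Of the 50 members, 9 had no count in any library, all of them Klra genes, and 13 had fewer than 10 counts in the 8 stromal libraries together. The summed level of all members was 176 to 222 CPM in liver stroma and 76.2 to 101 CPM in peritoneal stroma. It was 31.3 to 41.4 CPM in liver tumour cells, 24.3 to 52.4 CPM in peritoneal tumour cells and 12.6 to 28.1 CPM in the 9 cultures. In the peritoneal stroma of mouse 1, neutrophil genes summed to 4316 CPM, against 499 to 528 CPM in the other 3 peritoneal libraries. The peritoneal tumour cells of the same mouse held Ptprc, the leukocyte common antigen CD45, at 12.5 CPM, against 1.07 to 1.24 CPM in the other 3. Calls of members that changed without one of these libraries are given beside the result or with the changed fits below. In mice 1, 3 and 4 the liver and peritoneal libraries were run in the same lane, and in mouse 2 in different lanes.

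Levels of the cytotoxic effectors were compared between the stroma of liver and peritoneal tumours, a comparison that asks how far the immune surroundings differ with tumour site. Gzma, Gzmb and Prf1 were all higher in liver stroma, whereas Gzme was higher in peritoneal stroma and Gzmc, Gzmm and Nkg7 did not pass the test. In the whole comparison 33.3% of the 14755 genes tested passed an adjusted p of 0.05 in edgeR's quasi-likelihood test, 14.8% higher in liver and 18.5% higher in peritoneum. Of the 50 members 25 had enough counts to be tested, and 16 of them were higher in liver, 1 was lower and 8 were not called. Klrg1, Klra7 and Klre1 would not have passed the count filter on peritoneal stroma alone and entered through liver, where they are higher. The filter thus set the direction of the calls of Klrg1 and Klra7, which are among the 16 and give no further support. The groups did not overlap for 17 of the 25 members and for 38.3% of all genes tested. The median log2 fold change was 1.23 over the tested members and 0.02 over all genes tested. In bulk libraries, fewer cells of a type and less RNA per cell cannot be told apart.

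Gzma encodes granzyme A, a tryptase of NK and cytotoxic T cell granules. In liver stroma it stood at 12.2, 23.02, 19.6 and 21.4 CPM in mice 1 to 4, and in peritoneal stroma at 3.37, 2.42, 1.65 and 3.05 CPM. The groups did not overlap, and every mouse had the higher level in its liver tumour. The log2 fold change of 2.74 (SE 0.25, adjusted p = 4.22e-05) was the largest of the tested members.

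Gzmb encodes granzyme B, the protease that cleaves caspases in the target cell. It was measured at 12.8, 18.0, 13.8 and 15.0 CPM in liver stroma and at 5.02, 3.85, 0.978 and 2.03 CPM in peritoneal stroma. All 4 liver libraries again lay above all peritoneal ones, and within the peritoneum the level in mouse 1 was the highest and that in mouse 3 the lowest. The log2 fold change was 2.22 (SE 0.40, adjusted p = 0.00265).

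Prf1, the pore-forming perforin, was at 3.25, 5.33, 7.76 and 5.92 CPM in liver stroma and at 1.89, 1.82, 0.672 and 1.68 CPM in peritoneal stroma. It was higher in the liver of all 4 mice, with the narrowest gap in mouse 1. Its log2 fold change was 1.77 (SE 0.35, adjusted p = 0.00404). Nkg7, a membrane protein of cytotoxic granules, had 3.35, 6.60, 7.32 and 7.39 CPM in liver stroma and 5.84, 1.77, 0.428 and 1.23 CPM in peritoneal stroma. Mouse 1 thus ran against the other 3, and the difference was not called (log2 fold change 1.30, SE 0.63, adjusted p = 0.148). Without the peritoneal stroma of mouse 1, the library rich in neutrophil genes, the log2 fold change of Nkg7 was 2.32 (adjusted p = 0.00435).

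Among the granzymes encoded beside Gzmb, only Gzmc and Gzme had enough counts for the test, and neither was called higher in liver stroma. Gzmb, Gzmc, Gzmf, Gzmn, Gzmg, Gzmd and Gzme lie together on chromosome 14 at 56736456 to 56881097 of the mm9 genome, in the GENCODE M1 annotation. Gzmc was at 3.49, 4.18, 3.50 and 2.55 CPM in liver stroma and at 2.47, 2.21, 1.83 and 3.47 CPM in peritoneal stroma. It was higher in the liver of 3 mice and lower in mouse 4, and did not pass the test (log2 fold change 0.34, SE 0.24, adjusted p = 0.313). The ratio of Gzma to Gzmc counts within a library, which does not depend on library scaling, was between 3.48 and 8.38 in liver stroma and between 0.879 and 1.36 in peritoneal stroma. The ratio of Gzma to Ncr1 counts was likewise between 2.59 and 4.16 in liver and between 0.683 and 1.74 in peritoneal stroma, so that neither ratio overlapped between sites. Other ratios to Ncr1 did overlap, at 2.03 to 4.38 against 0.970 to 2.43 for Gzmb, 2.74 to 5.98 against 1.83 to 4.36 for Klrk1 and 0.352 to 1.19 against 0.622 to 1.98 for Gzmc.

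Gzme was the single tested member called higher in peritoneal stroma. It was at 0.372, 0.491, 0.859 and 0.592 CPM in liver stroma and at 1.44, 1.82, 1.93 and 1.44 CPM in peritoneal stroma. The groups did not overlap, with a log2 fold change of -1.63 (SE 0.32, adjusted p = 0.00359). Gzmd, its neighbour, moved the same way in every mouse, at 0.0744, 0.246, 0.0954 and 0 CPM in liver stroma against 0.618, 0.908, 0.275 and 1.23 CPM in peritoneal stroma. It had too few counts for the filter, and with no filter it was called lower in liver (log2 fold change -2.96, SE 0.73, adjusted p = 0.0114, edgeR's quasi-likelihood test). Of the 941 windows of 50 bases in Gzme transcripts, 19.3% also occur in another gene, most often Gzmd, so that reads could be divided between the pair in a way the deposited counts do not show. Gzmm, a granzyme encoded elsewhere, was at 0.561 to 1.26 CPM in liver and 0.458 to 1.26 CPM in peritoneal stroma (log2 fold change 0.02, adjusted p = 0.977). The other granzymes were sparse in stroma: Gzmk, Gzmg, Gzmn and Gzmf had from 3 to 20 counts in either stromal group of 4 libraries.

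The promoters of the chromosome 14 granzymes are shown because neighbours with similar sequence differed in level. Each window holds 250 bases before and 50 after the start of the gene in RefSeq, on the minus strand of GRCm38.p6 and read 5′ to 3′. Capitals mark matches, on either strand, to TGTGGTT (the letters of a Runx site, which read AACCACA on the other strand), TGANTCA (AP-1) or TTCNNNGAA (STAT).
Gzma: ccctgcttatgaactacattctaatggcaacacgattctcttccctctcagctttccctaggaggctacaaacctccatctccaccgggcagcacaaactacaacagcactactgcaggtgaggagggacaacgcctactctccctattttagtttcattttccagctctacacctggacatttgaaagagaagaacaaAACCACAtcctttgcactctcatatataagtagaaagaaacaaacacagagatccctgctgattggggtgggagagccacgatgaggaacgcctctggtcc
Gzmb: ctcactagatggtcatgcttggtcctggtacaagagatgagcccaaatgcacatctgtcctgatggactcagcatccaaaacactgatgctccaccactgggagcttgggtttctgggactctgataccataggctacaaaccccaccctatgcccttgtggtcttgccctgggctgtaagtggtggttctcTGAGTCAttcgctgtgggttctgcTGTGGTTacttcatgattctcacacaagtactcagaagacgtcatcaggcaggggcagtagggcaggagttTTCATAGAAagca
Gzmc: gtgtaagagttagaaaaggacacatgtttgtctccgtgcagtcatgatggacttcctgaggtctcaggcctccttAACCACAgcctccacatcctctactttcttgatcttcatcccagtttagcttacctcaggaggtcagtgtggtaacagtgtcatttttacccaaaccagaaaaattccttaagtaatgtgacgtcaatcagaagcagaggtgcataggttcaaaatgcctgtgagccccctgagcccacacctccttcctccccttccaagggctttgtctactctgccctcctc
Gzmd: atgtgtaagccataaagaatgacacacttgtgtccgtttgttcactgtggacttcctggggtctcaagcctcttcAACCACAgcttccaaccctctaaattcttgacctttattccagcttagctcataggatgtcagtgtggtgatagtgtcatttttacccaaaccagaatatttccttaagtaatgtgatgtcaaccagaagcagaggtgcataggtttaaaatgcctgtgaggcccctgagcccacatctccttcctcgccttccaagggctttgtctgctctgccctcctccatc
Gzme: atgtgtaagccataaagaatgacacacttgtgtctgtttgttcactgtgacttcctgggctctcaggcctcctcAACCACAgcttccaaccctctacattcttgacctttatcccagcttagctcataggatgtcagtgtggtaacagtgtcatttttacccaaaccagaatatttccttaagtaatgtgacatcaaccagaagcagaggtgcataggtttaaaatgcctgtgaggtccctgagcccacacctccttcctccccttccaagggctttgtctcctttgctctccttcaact
The windows are chr13:113100932-113101231 for Gzma, chr14:56262285-56262584 for Gzmb, chr14:56234608-56234907 for Gzmc, chr14:56132544-56132843 for Gzmd and chr14:56120576-56120875 for Gzme. Gzmd and Gzme, both lower in liver stroma, shared 281 of 300 bases in a global alignment. Gzmc, which was not lower, shared 254 bases with Gzme, and Gzmb shared 145. The Runx letters were present in each of the 5 windows, at position 217 of the window in Gzmb, where AP-1 letters stood at position 193 and STAT letters at position 288. Positions are counted from 1 at the 5′ end of the window. Over the members, 37 genes had 44 windows in the table. The Runx letters were in 12 of these windows and in 5.27% of 32851 promoters of the same length. AP-1 letters were in 6 of the 44 windows and in 7.81% of all promoters, STAT letters in 7 and 8.30%, and a T-box sequence, AGGTGTNA, in 2 and 3.03%. The windows of Gzmc, Gzmd, Gzme, Gzmf and Gzmg shared 239 to 281 bases with each other and cannot be counted as separate cases, and no binding was measured.

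**Figure D1:**
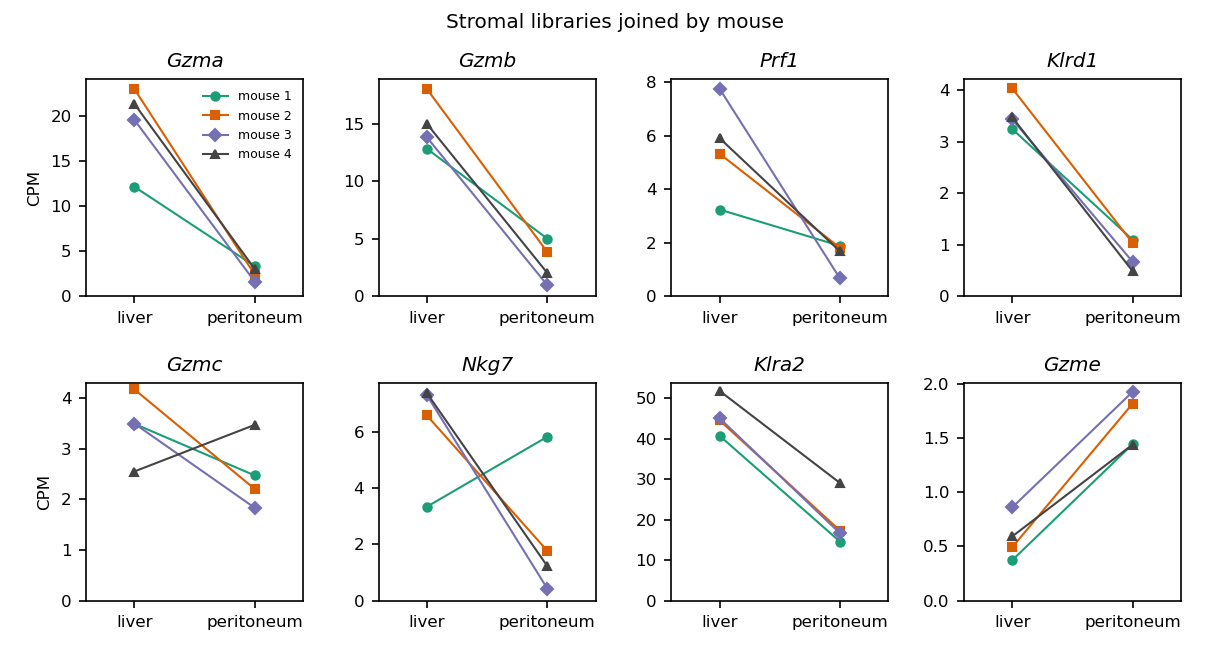
CPM of 8 members in the stroma of the liver and peritoneal tumour of each mouse, with 1 line per mouse and an axis that starts at 0. Gzma, Gzmb, Prf1, Klrd1 and Klra2 fall from liver to peritoneum in all 4 mice, Gzme rises in all 4, Gzmc differs in mouse 4 and Nkg7 in mouse 1.

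Several receptors that pair or act together in NK cells were also higher in liver stroma. The log2 fold change of Klrd1 lay between those of Gzmb and Prf1, and differences between genes were not tested. Of the 16 Klr genes outside the Klra group, 12 were tested and 8 were called higher in liver, with Klrg1 among them through liver counts only. Klrd1, which encodes CD94, was at 3.25, 4.04, 3.44 and 3.48 CPM in liver stroma and at 1.10, 1.04, 0.672 and 0.491 CPM in peritoneal stroma. The 4 liver values lay close together, well above all peritoneal ones, and the log2 fold change was 1.99 (SE 0.27, adjusted p = 0.000451). Klrk1 (NKG2D) was at 17.5, 25.6, 15.3 and 19.9 CPM in liver stroma and at 8.31, 6.49, 4.09 and 7.65 CPM in peritoneal stroma. It showed no overlap either, with a log2 fold change of 1.44 (SE 0.22, adjusted p = 0.00086). Klri1 and Klri2, which encode a receptor pair that forms dimers with the product of Klre1, had log2 fold changes of 1.36 (SE 0.21) and 1.41 (SE 0.16). Klri1 was at 4.23 to 6.74 CPM in liver and 1.58 to 2.29 CPM in peritoneal stroma, and Klri2 at 7.44 to 9.83 CPM and 2.35 to 3.47 CPM. Their partner Klre1 was at 0.629 to 1.47 CPM in liver stroma and at 0 to 0.618 CPM in peritoneal stroma. It did not overlap between groups but missed the threshold (log2 fold change 1.56, SE 0.68, adjusted p = 0.109), with no count in the peritoneal stroma of mouse 3.

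Klrc1 (NKG2A), the inhibitory partner of CD94, was at 3.47, 5.61, 4.10 and 3.33 CPM in liver stroma and at 2.40, 2.85, 1.25 and 1.86 CPM in peritoneal stroma. Its log2 fold change of 0.87 (SE 0.27, adjusted p = 0.0335) was less than that of Klrd1, although that difference between the 2 genes was not tested. Klrg1, an inhibitory receptor for cadherins, was at 0.807 to 1.18 CPM in liver and 0.153 to 0.561 CPM in peritoneal stroma, with a log2 fold change of 1.23 (SE 0.40, adjusted p = 0.0371). Since Klrg1 passed the count filter through liver only, the direction of this call was set by the filter. Klrg2 was at 5.23 to 7.73 CPM in liver and 2.89 to 5.04 CPM in peritoneal stroma, and was not called (log2 fold change 0.45, adjusted p = 0.159).

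Among NKR-P1 genes, Klrb1c and Klrb1f were higher in liver stroma and Klrb1a and Klrb1b were not called. Klrb1c encodes NK1.1 in strains that carry the epitope. It was at 5.30, 4.77, 5.95 and 6.47 CPM in liver stroma and at 2.23, 3.37, 3.76 and 3.02 CPM in peritoneal stroma (log2 fold change 0.74, SE 0.21, adjusted p = 0.0194). Klrb1f was at 4.24 to 8.75 CPM in liver and 1.82 to 4.16 CPM in peritoneal stroma (log2 fold change 0.93, SE 0.30, adjusted p = 0.0364), with nearly equal levels in mouse 1. Klrb1b, an inhibitory receptor for Clec2d, was one of the most abundant members, at 22.8, 14.6, 22.9 and 22.996 CPM in liver stroma and at 9.69, 14.3, 17.8 and 16.5 CPM in peritoneal stroma. Its groups overlapped (log2 fold change 0.40, SE 0.22, adjusted p = 0.194). Klrb1a was at 1.71 to 3.56 CPM and 2.56 to 3.07 CPM (log2 fold change -0.24, adjusted p = 0.481). Of the 50-base windows of Klrb1a transcripts 10.6% occur in another gene, most often Klrb1c.

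Only 4 of the 20 Ly49 genes had enough counts to be tested, and 3 of them were called higher in liver stroma, with Klra7 among them through liver counts only. Klra2 had the highest level of all members with a gene model in liver and peritoneal stroma, 24.0 and 10.2 CPM per kilobase of exonic sequence. It was at 40.7, 44.5, 45.0 and 51.8 CPM in liver stroma and at 14.6, 17.3, 16.6 and 29.0 CPM in peritoneal stroma. All liver libraries lay above all peritoneal ones, where mouse 4 was the highest, and the log2 fold change was 1.11 (SE 0.21, adjusted p = 0.00302). Klra17 was at 4.77 to 9.35 CPM and 2.72 to 5.67 CPM, overlapping between groups (log2 fold change 0.91, SE 0.27, adjusted p = 0.0276). Klra7 (Ly49G) was at 0.868 to 1.96 CPM in liver and 0.153 to 0.687 CPM in peritoneal stroma (log2 fold change 1.43, SE 0.47, adjusted p = 0.0395). The direction of its call was set by the count filter. Klra3 (Ly49C) was at 1.21 to 2.04 CPM and 0.649 to 1.58 CPM and was not called (log2 fold change 0.55, adjusted p = 0.242). In GENCODE M1, 64.9% of the 50-base windows of Klra3 transcripts occur in another gene, most often Klra9, so its count is uncertain. The host strain can carry other Ly49 genes than the reference genome, and 8 of the 50 members, all Ly49 genes, have no gene model in that annotation.

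Ncr1 (NKp46) and Eomes, a transcription factor of NK cells, completed the group that was higher in liver stroma. Ncr1 was at 2.92, 8.88, 4.77 and 7.25 CPM in liver stroma and at 2.06, 3.55, 1.01 and 1.75 CPM in peritoneal stroma. It was higher in the liver of every mouse, but the liver value of mouse 1 lay below the peritoneal value of mouse 2 (log2 fold change 1.40, SE 0.42, adjusted p = 0.0285). Eomes was at 5.08, 6.39, 8.21 and 8.24 CPM in liver stroma and at 5.05, 2.08, 1.01 and 2.91 CPM in peritoneal stroma, with hardly any gap in mouse 1. Its log2 fold change was 1.23 (SE 0.41, adjusted p = 0.0444), and with the mouse as a block the adjusted p was 0.0599. Of the 25 tested members, 19 were higher in liver stroma in 4 of 4 mice, as were 38.6% of all genes tested, and 1, Gzme, was lower in 4 of 4, as were 20.8% of all genes tested.

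**Figure D2:**
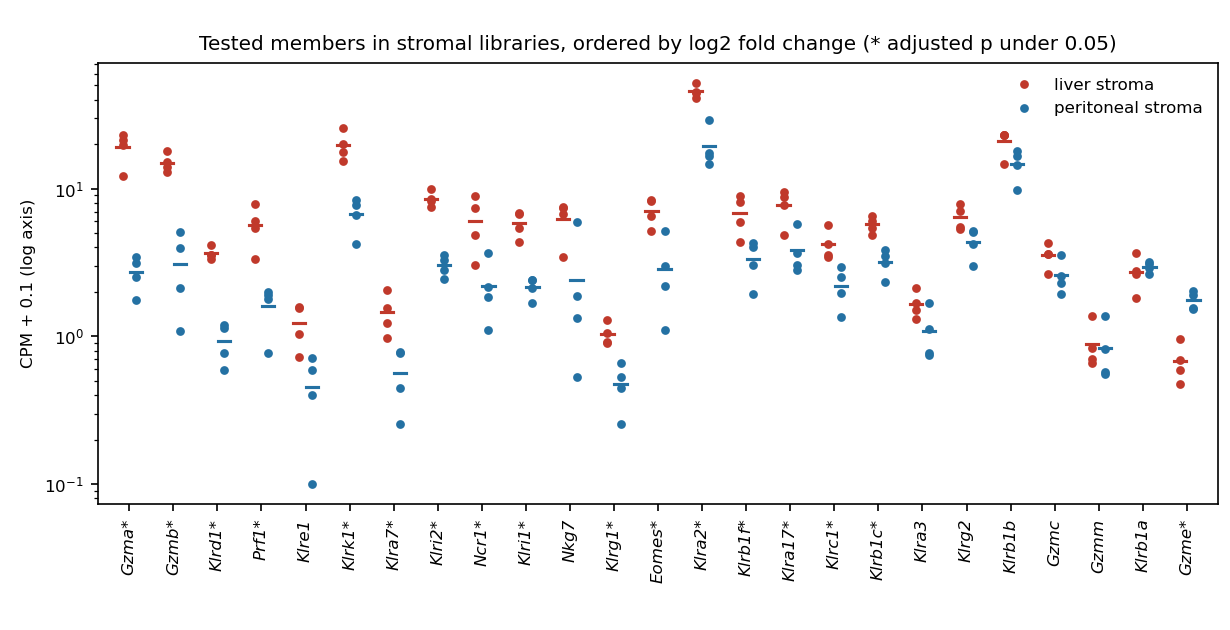
CPM plus 0.1, on a log axis, of the 25 tested members in the 4 liver (red) and 4 peritoneal (blue) stromal libraries, with short bars at the means. Members are ordered by log2 fold change from Gzma (2.74) to Gzme (-1.63), and stars mark an adjusted p under 0.05.

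The calls fell into 2 sets of equal size when the fit was changed. Gzma, Gzmb, Prf1, Klrd1, Klrk1, Klri1, Klri2 and Klra2 were called higher in liver under all 15 alternative settings, each fit without one library included, and Gzme was called lower under all 15. The 8 others, Ncr1, Eomes, Klrg1, Klrc1, Klrb1c, Klrb1f, Klra7 and Klra17, lost the call under at least one setting. Without the liver stroma of mouse 2, 3 or 4, the number of members called higher was 9, 10 and 10, and without the peritoneal stroma of mouse 2, 3 or 4 it was 11, 10 and 11. Without the liver or the peritoneal library of mouse 1 it was 15 in both cases. Over these fits without one library, 26.3% to 32.8% of all genes tested were called in either direction. Leaving out the peritoneal stroma of mouse 1, the library rich in neutrophil genes, ended the calls of Ncr1 (log2 fold change 1.37, adjusted p = 0.0506) and Klrg1 (1.17, adjusted p = 0.0762) and added that of Nkg7. One of the 15 settings scaled libraries to 9 leukocyte genes, so the first set was higher under it by definition. No other member was called higher on that scale. This scaling asks for a difference beyond that of leukocyte RNA as a whole, and moved the median log2 fold change of all genes from 0.02 to -0.58. It called 68.1% of all genes tested in either direction, against 33.3% in the main fit, so a call is common on that scale. All 9 leukocyte genes were higher in liver stroma, and Ptprc was at 903 to 951 CPM there and at 442 to 550 CPM in peritoneal stroma. On that scale Gzma had a log2 fold change of 2.17 (adjusted p = 3.81e-05) and Gzmb of 1.64 (adjusted p = 0.00595), whereas Klrb1c had 0.13 (adjusted p = 0.635) and Klrb1a became lower in liver (-0.84, adjusted p = 0.0138).

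**Figure D3:**
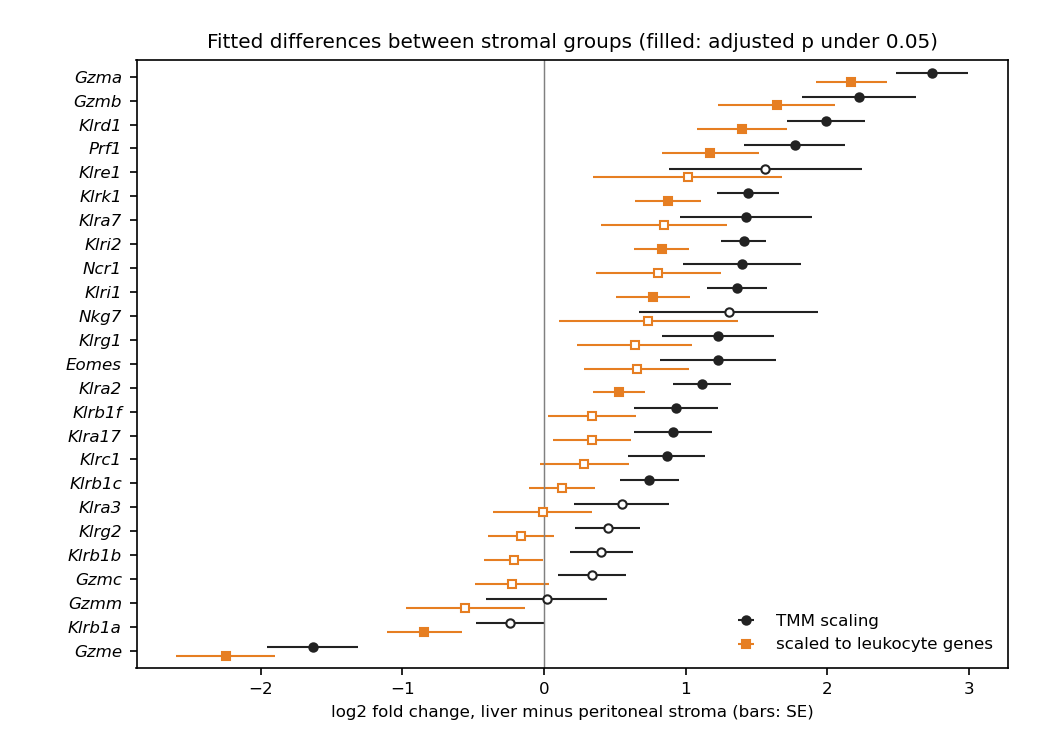
Log2 fold change, liver minus peritoneal stroma, of the 25 tested members with SE, under TMM scaling (black circles) and under scaling to leukocyte genes (orange squares). Filled symbols mark an adjusted p under 0.05, and 8 members stay filled to the right of 0 on both scales.

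Genes that act with the members were examined in lists. Over all genes tested, 14.8% were higher in liver stroma and 18.5% were lower, and the list counts stand beside these shares. Of 33 NK partner genes 28 were tested, and 14 were higher in liver stroma, 2 were lower and 12 were not called. The higher ones included Ccl5, a chemokine of activated lymphocytes (18.8 against 4.53 CPM, log2 fold change 1.94, SE 0.44), Fasl, the death ligand (2.55 against 0.702 CPM, 1.74, SE 0.29), and Il2rb, a subunit of the IL-2 and IL-15 receptors (30.6 against 8.96 CPM, 1.65, SE 0.26). Il15ra, which presents IL-15 to NK cells, was lower in liver (5.15 against 22.7 CPM, log2 fold change -2.26, SE 0.14), as was Itga1 (-0.61, SE 0.20). Tbx21, the transcription factor T-bet, had a log2 fold change of 1.13 (SE 0.40, adjusted p = 0.0544) and was not called.

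Of 12 adaptor and signalling genes 8 were higher in liver stroma, none was lower and 4 were not called. Zap70 and Lck, kinases below immune receptors, had log2 fold changes of 1.64 (SE 0.23) and 1.25 (SE 0.20), and Tyrobp (DAP12), the adaptor of activating Ly49 and CD94 receptors, of 0.54 (SE 0.13). Hcst (DAP10), the adaptor of NKG2D, was at 3.02 to 5.58 CPM and 1.86 to 2.68 CPM and missed the threshold (log2 fold change 0.75, SE 0.26, adjusted p = 0.0517). Among 10 genes for granule loading and granzyme processing, 4 were higher (Unc13d, Rab27a, Srgn and Stxbp2), Ctsl was lower and 5 were not called, among them Ctsc, the protease that activates granzymes (log2 fold change 0.23, SE 0.10, adjusted p = 0.103). Of 5 serpins that inhibit granzymes or related proteases, Serpinb6b was higher and Serpinb1a and Serpinb6a were lower. Serpinb9, the inhibitor of granzyme B, was at a mean of 34.2 and 31.3 CPM, with a log2 fold change of 0.01 (SE 0.15, adjusted p = 0.953). The 4 activating cytokine genes that could be tested, Il15, Il12a, Il12b and Il18, were not called, with log2 fold changes from -0.04 to 0.34.

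Of 20 genes listed as ligands 9 were tested, and 2 were higher in liver stroma and 1 was lower. These counts were near the 14.8% higher and 18.5% lower over all genes tested. Clec2i, a ligand of NKR-P1 receptors, was higher in liver stroma (7.79 against 2.67 CPM, log2 fold change 1.43, SE 0.19), as was H2-T23, which encodes Qa-1 (86.7 against 60.2 CPM, 0.41, SE 0.11). Ulbp1, a ligand of NKG2D, was lower in liver (5.03 against 8.87 CPM, -0.93, SE 0.17), and the other 6, Ceacam1 and Cdh1 among them, were not called. The paper describes CEACAM1 as binding CEACAM1 on NK cells, so it was not listed as a partner of a member receptor. The difference in Ceacam1 by site in the paper was in tumour cells, whereas the comparison here is of stroma.

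Markers of other cell types were examined as well, and their part in the member differences was not tested. Over all genes tested, 14.8% were higher in liver stroma and 18.5% were lower. The counts for T cell, macrophage and innate lymphoid cell genes, given here and below, were near these shares. Gzma, Gzmb, Prf1 and Nkg7 are also expressed by T cells. The T cell list had 2 of 9 tested genes lower in liver stroma (Cd3e and Thy1) and none higher. Cd3d was at 0.407 to 0.983 CPM in liver and 0.303 to 1.79 CPM in peritoneal stroma, Cd3g at 0.545 to 0.807 CPM and 0.0611 to 0.618 CPM, and Cd8a at 3.75 to 7.09 CPM and 1.05 to 4.98 CPM. The summed T cell genes were at 42.6 to 71.0 CPM in liver and 224 to 339 CPM in peritoneal stroma, most of it Thy1, which fibroblasts also express. Plasmacytoid dendritic cell genes, relevant to Klra17, were called higher in liver for 2 of 7, Siglech and Pacsin1. Their stromal sums were 211 to 295 CPM and 196 to 254 CPM. In liver and peritoneal tumour cells the sums were 190 to 214 CPM and 153 to 202 CPM, so the sum does not measure these dendritic cells alone. Of 8 macrophage genes 1 was higher in liver, with sums of 3670 to 4170 CPM and 2381 to 4156 CPM.

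Mast cell genes, listed because some mast cells express granzymes, were lower in liver stroma for 7 of 10. Their sums were 335 to 480 CPM against 550 to 2030 CPM. In liver and peritoneal tumour cells the sums were 339 to 871 CPM and 285 to 661 CPM, so the sum does not measure mast cells alone. In the peritoneal stroma of mice 1 to 4 the mast cell sums were 1118, 550, 2030 and 644 CPM. Gzme was at 1.44, 1.82, 1.93 and 1.44 CPM in these libraries, and Gzmd at 0.618, 0.908, 0.275 and 1.23 CPM. A relation between these levels was not tested. Innate lymphoid cell genes had 1 of 6 lower in liver (Il1rl1) and none higher. All 6 fibroblast genes were lower in liver, with sums of 3743 to 7599 CPM against 48278 to 71377 CPM, and all 4 B cell genes and all 7 tested hepatocyte genes were higher.

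Sorted tumour cells were compared with the stroma of the same site, using the stromal libraries already compared above. In the liver, 77.7% of the 14620 genes tested were called, 39.4% higher in stroma and 38.4% higher in tumour cells, and of 27 members tested 22 were higher in stroma and 3 in tumour cells. In the peritoneum 76.4% of 14584 genes were called, 37% higher in stroma and 39.4% higher in tumour cells. Of 23 members there, 19 were higher in stroma and the same 3 in tumour cells. Most members higher in stroma, such as Klrd1, were nearly absent from tumour cells and passed the count filter through stroma only. Klra18 would not have passed on stromal counts alone. For such members the direction of a call was set by the filter, so these counts give no further support. Tumour cell levels of Gzma were 0.346% of the stromal level in the liver and 2.54% in the peritoneum, beside 0.228% and 0.792% for Ptprc. Without the peritoneal tumour cells of mouse 1, the library with raised Ptprc, the peritoneal shares were 0.959% for Gzma and 0.227% for Ptprc. In peritoneal fits without that library, 21 members were higher in stroma and 4 in tumour cells. Without the peritoneal stroma of mouse 1 these counts were 19 and 4. In both fits Klrc2 joined the 3, and 74.6% and 74.3% of all genes tested were called. Klrd1 had no count in the 4 liver tumour cell libraries, which put the liver stroma at least 172-fold higher against a floor of 3 counts over the group. Klra7 had none in either tumour cell group, at least 65.7-fold and 22.3-fold lower than stroma.

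The 3 members that were higher in tumour cells were Klrc1, Gzme and Klra18. Klrc1 was at 25.4, 22.4, 20.2 and 16.8 CPM in liver tumour cells and at 10.0, 19.6, 11.7 and 38.1 CPM in peritoneal tumour cells, which made it the member with the highest level per kilobase there (10.7 and 10.0 CPM per kilobase). All 8 values were above every stromal one. The log2 fold change, stroma minus tumour cells, was -2.29 (SE 0.17, adjusted p = 1.49e-07) in the liver and -3.14 (SE 0.49, adjusted p = 0.00045) in the peritoneum. Klrc1 lies on chromosome 6 at 129616033 to 129628991 of mm9, minus strand, and no other gene of GENCODE M1 overlaps it. Of the 50-base windows of its transcripts 38.6% occur in another gene, most often Klrc2, which was itself at 0.225 to 0.450 CPM in liver and 0.159 to 1.13 CPM in peritoneal tumour cells. Klrd1, the partner with which NKG2A reaches the cell surface, had 0 counts in the liver and 1 count in the peritoneal tumour cells. H2-T23, the Qa-1 gene, was at 12.1 to 17.4 CPM and 17.9 to 20.9 CPM in the same libraries.

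Gzme was at 4.87, 4.59, 8.05 and 5.28 CPM in liver tumour cells and at 2.87, 14.3, 14.1 and 3.13 CPM in peritoneal tumour cells. It was higher than in stroma at both sites (log2 fold change, stroma minus tumour cells, -3.24, SE 0.32, adjusted p = 1.64e-06 in the liver and -2.27, SE 0.59, adjusted p = 0.00698 in the peritoneum). Peritoneal levels fell into a high pair, mice 2 and 3, and a low pair, mice 1 and 4. Klra18 was at 2.69, 3.41, 2.86 and 2.13 CPM in liver and at 2.14, 2.77, 2.91 and 2.49 CPM in peritoneal tumour cells, against 0.185 to 0.604 CPM and 0.0344 to 0.275 CPM in stroma. Its log2 fold changes were -2.81 (SE 0.37, adjusted p = 2.23e-05) and -3.97 (SE 0.49, adjusted p = 9.03e-05). Stromal libraries held 5 to 19 counts in the liver and 1 to 9 in the peritoneum. Klra18 passed the filter through tumour cells only, so the direction of these calls was set by the filter and they give no further support. No gene model of Klra18 was found in GENCODE M1, so what this count holds could not be placed on the genome.

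The stromal levels of these 3 genes were set against their tumour cell levels, since the sort was not tested for tumour cells left in the stroma. From liver to peritoneal stroma, Gzme went from 10.1% to 19.3% of its tumour cell level, while Klrc1 went from 19.5% to 10.5% and Klra18 from 13.6% to 5.78%. These shares are ratios of group means and leave out the pairing by mouse. On the means, the share of Gzme was higher in the peritoneum and those of Klrc1 and Klra18 were lower there. Klrc1 in mouse 1 went the other way, with stroma and tumour cells at 3.47 and 25.4 CPM in liver and 2.40 and 10.0 CPM in peritoneum. The part of tumour cells in the stromal values was not tested.

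Between liver and peritoneal tumour cells no member was called. The comparison had 3.11% of 13074 genes called, 10 members were tested, 0 of them had an unadjusted p under 0.05 in edgeR's quasi-likelihood test, and DESeq2 called 0. Klrc1 had a log2 fold change of 0.16 (SE 0.40), Klra18 of 0.16 (SE 0.23), Gzme of -0.53 (SE 0.57) and Eomes of 0.93 (SE 0.44, adjusted p = 0.273). The Klrb1f value of 0.414 CPM in the peritoneal tumour cells of mouse 1 against at most 0.039 CPM in the other 3, was in the library with raised Ptprc.

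**Figure D4:**
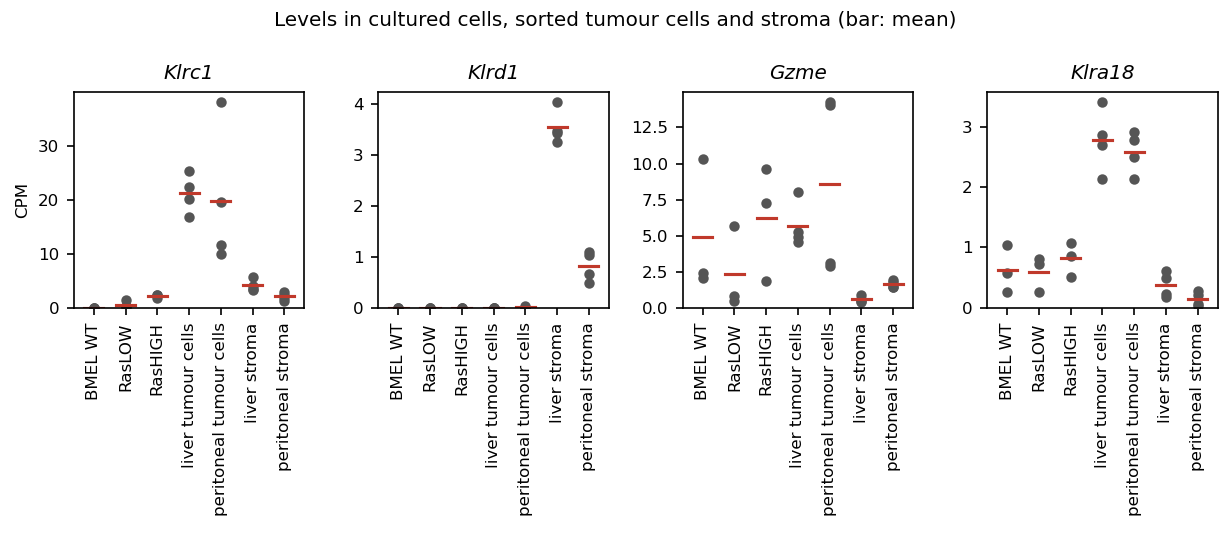
CPM of Klrc1, Klrd1, Gzme and Klra18 in each library of the 7 groups, with a red bar at the mean and axes that start at 0. Klrc1 and Klra18 are highest in sorted tumour cells, Gzme overlaps between cultures and tumour cells, and Klrd1 is at 0 or 1 count outside the stroma.

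Cultured cells were examined for the members found in tumour cells, a comparison added after their values had been seen. Klrc1 was at 0.0371, 0 and 0.0415 CPM in BMEL WT, at 1.38, 0.257 and 0.129 CPM in RasLOW and at 1.90, 2.41 and 2.40 CPM in RasHIGH cells. The 3 groups did not overlap, and RasHIGH lay above the others in all its cultures. RasHIGH held 152 counts against 2 in BMEL WT, a ratio of 86.6 after division by depth with an exact 95% interval from 23.6 to 721 that covers counting error only. The quasi-likelihood test gave a log2 fold change of 6.20 (SE 0.59, adjusted p = 0.000869), in a comparison with 22.6% of 12331 genes called and 2 of 7 tested members. Against RasLOW the log2 fold change was 1.88 (SE 0.81, adjusted p = 0.527), where 0.0669% of 11962 genes and 0 of 7 members were called, 0 at an unadjusted p under 0.05, and DESeq2 also called 0. Even in RasHIGH cells Klrc1 remained below every library of sorted tumour cells, which start at 10.0 CPM.

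Klra2 was the other member called between RasHIGH and BMEL WT, at 5.43, 2.64 and 2.88 CPM against 1.22, 1.19 and 1.04 CPM (log2 fold change 1.67, SE 0.36, adjusted p = 0.0178). Without BMEL WT culture 1, 2 or 3 the adjusted p was 0.0508, 0.0649 and 0.0713. Gzme overlapped between all 3 groups of cultures, at 10.3, 2.05 and 2.41 CPM in BMEL WT, 5.67, 0.845 and 0.472 CPM in RasLOW and 1.82, 7.29 and 9.61 CPM in RasHIGH cells. Klra18 was at 0.257 to 1.07 CPM over the 9 cultures, Klrg2 at 4.50 to 11.1 CPM, Gzmm at 0.240 to 1.17 CPM and Eomes at 0.298 to 5.75 CPM. Between RasLOW and BMEL WT 5.7% of 12307 genes were called and 0 of 6 members, 0 at an unadjusted p under 0.05, and DESeq2 also called 0. BMEL WT cultures 1 and 2 were sequenced in another lane than the remaining 7, so culture type and lane cannot be told apart in full. Gzma, Klrd1, Ncr1, Nkg7 and Klra7 had no count in any of the 9 cultures.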

How the data were processed

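RNA-seq counts were analysed for 25 libraries. The deposited table holds whole-number counts per gene, made by the authors, whose methods name TopHat2 and mm9, while the submitters' processing notes name Bowtie 0.12.2, mm8 and mm10. The counting tool, its annotation and its use of strand are not given in the sources used here. Groups came from the labels. Genes were filtered with edgeR's filterByExpr (minimum count 10), scaled by TMM and tested with edgeR 4.0.16 (quasi-likelihood, robust) in R 4.3.3, within the groups compared. P-values were adjusted by Benjamini-Hochberg over all genes tested, with a threshold of 0.05. Levels are CPM of the library total. Members and gene lists were chosen with earlier results of these data known. Named members were those with a mean of at least 1 CPM in a stromal group or called between stromal groups. Klra18, Gzmd, Gzmm and the other rare granzymes were named after their values were seen. Positions come from GENCODE M1 (mm9) and promoters from RefSeq (GRCm38.p6), and no coordinates were converted. Alternatives were DESeq2 1.42.0, its size factors, no filter, the mouse as a block, all 16 libraries of sorted cells, another threshold, a scale set by leukocyte genes and fits that each omitted 1 library. Pairing comes from the labels, since both tumours were of the same mouse. Deviations from the group means correlated by -0.00670 to 0.355 between the stromal libraries of a mouse. On simulated counts for liver against peritoneal stroma (14895 genes), edgeR recovered 73.5% of 98 genes changed 2-fold and 100% of 96 changed 4-fold. The simulation gave every gene a dispersion of 0.05 and changed only genes with a mean of at least 10 counts. These rates need not hold for members that were rarer or varied more.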

Additional observations from a re-analysis of the deposited data

Results flagged for a closer look

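Dixon's test was applied to 68 groups of 4 libraries and marked 3 values as far from the other libraries of their group, where chance marks about 1 in 20 groups. Klrb1b was at 14.6 CPM in the liver stroma of mouse 2, against 22.8 to 22.996 CPM in the other 3 (gap over range 0.980). Klrb1f was at 0.414 CPM in the peritoneal tumour cells of mouse 1, against 0 to 0.039 CPM in the other 3 (0.906), in the library where Ptprc was also raised at 12.5 CPM. Prf1 was at 0.672 CPM in the peritoneal stroma of mouse 3, against 1.68 to 1.89 CPM in the other 3 (0.831).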

How the results depend on the processing

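The 16 members called higher in liver stroma became 8 with scaling to leukocyte genes and 9 to 15 when 1 library was left out. Of all genes tested, 68.1% were called in either direction with that scaling and 26.3% to 32.8% without 1 library. The share in the main fit was 33.3%. The 1 lower member became 2 with that scaling and with no filter, and 1 to 2 when 1 library was left out. With the mouse as a replicate block 15 were higher and 1 lower, and Eomes lost its call. DESeq2 and its size factors each gave 16 and 1. The shares of all genes called were 24.6% with no filter, 38.1% with the block, 37% in DESeq2 and 33.4% with its size factors. Scaling to leukocyte genes turned the sign of Klrg2 (-0.16), Klrb1b (-0.21), Klra3 (-0.0084), Gzmc (-0.23) and Gzmm (-0.55), none of them called in either fit. The log2 fold change of Klrc1 between tumour cells was -0.0542 and -0.0289 without the peritoneal library of mouse 1 or 3, within a range from -0.0542 to 0.67 over fits without 1 library. The cause was not tested. The count of 0 between tumour cells held under every setting run, and the counts between stroma and tumour cells were 25 to 30 in the liver and 22 to 27 in the peritoneum. Depth limits the rare members, since 3 counts are up to 0.144 CPM.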
